A study of Mus musculus with 18 samples.

Results

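The 10 genes described here belong to the circadian clock: Per1, Per2, Per3, Cry1, Cry2, Nr1d1, Nr1d2, Dbp, Tef and Bhlhe40. They were taken by gene symbol from a table of counts per gene that listed 56748 genes, of which 27701 had at least 1 count, and all 10 were among the 13691 genes with enough counts to be tested. RNA was sequenced from RAW 264.7 cells, an immortalised line of mouse macrophages, and the study asked how the food antioxidant TBHQ (tert-butylhydroquinone) alters their response to immune stimuli. The 18 libraries fell into 6 conditions of 3, which the study states are biological replicates, so that p-values measure the spread between cultures of this line. Control cells were left untreated. LPS cells received 0.1 µg/mL of lipopolysaccharide, a bacterial membrane component that engages Toll-like receptor 4, for 12 h. PIC cells received 20 µg/mL of polyinosinic-polycytidylic acid, a mimic of viral double-stranded RNA, for 12 h. TBHQ cells received 5 µM TBHQ for 4 h, and LPS+TBHQ and PIC+TBHQ cells received the same 4 h of TBHQ followed by 12 h of the stimulus.

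TBHQ cells were lysed when their 4 h of exposure ended, which was 12 h before LPS+TBHQ and PIC+TBHQ cells, whose stimulus began at that point. By the study's account, cells were seeded at noon and left 4 h to adhere, and TBHQ cells received TBHQ at 4 p.m. for 4 h. Its text places control, LPS and PIC cells in its 12 h design, without the hour at which they were lysed. Clock genes vary with the time of day, so a difference in harvest time matters for them. On that design TBHQ against control may compare cells that differ in harvest time as well as treatment, and the effects of TBHQ, time of day and time in culture cannot be told apart in it. Whether LPS and LPS+TBHQ cells, or PIC and PIC+TBHQ cells, were harvested at the same hour was likewise not stated in the study's text. Nor was it stated whether control cells were lysed at the same hour as any of the stimulated cells. A difference from control may thus include one of harvest time, and verbs such as rose, fell or raised give its direction only. The study dissolved TBHQ in DMSO, and its account of the RNA experiment names no DMSO for control, LPS or PIC cells. If those cells received none, effects of TBHQ and of its solvent cannot be told apart in any comparison of cells with and without TBHQ. All comparisons with the control share its 3 libraries.

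The mammalian clock is a feedback loop in which CLOCK and BMAL1 (gene Arntl) bind E-box sequences and switch on the Per and Cry genes, whose proteins return to the nucleus and block CLOCK and BMAL1. A linked loop runs through the REV-ERB receptors (Nr1d1 and Nr1d2), which repress Arntl, and through the PAR bZIP factors DBP and TEF, which act on D-box sequences. Macrophages carry a working clock that sets the daily timing of cytokine release, and REV-ERB proteins repress inflammatory genes in these cells.

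Each library held 14423390 to 18851626 counts over all genes (median 15742338), and 18975 to 19582 genes had at least 1 count. A floor of 3 counts corresponded to 0.159 to 0.208 CPM (counts scaled to library depth), which covers counting error only. Levels are given as the deposited FPKM, fragment counts scaled by gene length and library, so that genes of different length can be set side by side. The deposited FPKM equalled counts over gene length and library total times a constant that differed between libraries, 0.943 to 0.951 in control, a median of 1.01 in LPS, 1.11 to 1.12 in PIC, 0.945 to 0.954 in TBHQ, 0.992 to 0.999 in LPS+TBHQ and 1.05 to 1.06 in PIC+TBHQ. Statements that groups of libraries overlapped or stood apart refer to these FPKM. Of 90 such statements for the 10 genes in 9 pairwise comparisons, 78 were the same in CPM, which use the library total alone, and 12 were not. Differences are log2 fold changes (log2FC) from edgeR's quasi-likelihood test on counts, and a gene was called when its p-value after Benjamini-Hochberg adjustment over all 13691 genes (the false discovery rate, FDR) was below 0.05. The standard error (SE) beside a log2FC is that of the difference between 2 condition means of log2 CPM, taken from the spread of the 3 libraries of each. Unlike the CPM above, those log2 CPM used library sizes scaled by TMM (trimmed mean of M-values) and a prior count of 2. The SE is not an error of the edgeR fit. All 7 macrophage marker genes examined were present in each library, at 7.53 to 4650 FPKM. Of 8 markers of T cells, B cells, fibroblasts and epithelium, 3 (Cd3e, Col1a2 and Krt18) had no counts, the most abundant (Cd79a) reached 0.338 FPKM, and the 8 summed to between 0 and 0.349 FPKM per library. In these bulk libraries, fewer cells expressing a gene and less of its RNA per cell cannot be told apart.

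With LPS, 5 of the 10 genes were called higher than in the control and 1 lower, beside 24% of all tested genes higher and 24.1% lower. The median log2FC was 0.43 over the 10 genes and -0.0040 over all tested genes. With PIC, 5 were called higher and 2 lower, beside 28.6% and 30.1% of all tested genes, and the medians were 0.36 and -0.01. LPS+TBHQ against control called 4 higher and 2 lower, beside 21.2% and 22.5%, and PIC+TBHQ against control called 3 higher and 2 lower, beside 26.4% and 26%. The median absolute log2FC of the 10 genes was 0.518 with LPS and 0.525 with PIC, beside 0.246 and 0.331 over all tested genes. It was 0.366 with LPS+TBHQ and 0.401 with PIC+TBHQ, beside 0.217 and 0.274, each against control. None of the 10 passed the stricter rule that the study used, an FDR below 0.01 with an absolute log2FC above 2, which 1.64% of tested genes passed with LPS, 3.57% with PIC, 0.964% with LPS+TBHQ, 2.15% with PIC+TBHQ and 0.19% with TBHQ alone, each against control.

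TBHQ given before LPS called 0 of the 10 genes higher and 2 lower than LPS alone, beside 11.7% and 12.2% of all tested genes. Before PIC it called 0 higher and 3 lower than PIC alone, beside 15.8% and 15.5%. Nr1d1 and Bhlhe40 were called lower in both, and Per1 in the comparison with PIC. Whether the TBHQ effect differed between the stimuli was tested as an interaction, which called 0.825% of all genes with a more positive effect in PIC and 1.01% with a more negative one. None of the 10 genes was called by edgeR in that test, and 0 were called by DESeq2 or limma, with interaction log2FC between -0.17 and 0.31. In edgeR 0 of the 10 had an unadjusted p below 0.05, beside 1940 of all 13691 tested genes. The stimuli themselves were also set against each other. PIC against LPS called 2 of the 10 genes higher and 1 lower, beside 14.9% and 12.8%, and PIC+TBHQ against LPS+TBHQ called 1 higher (Bhlhe40) and 0 lower, beside 11.9% and 8.39%.

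TBHQ alone against control, where harvest time may differ as well, called 0 of the 10 genes higher and 6 lower, beside 14.2% and 14.8% of all tested genes. Its median log2FC was -0.50 over the 10 genes and -0.0001 over all tested genes, and the median absolute log2FC was 0.50 and 0.16. The 6 genes were Per1, Per3, Nr1d2, Dbp, Tef and Bhlhe40. The plot of levels shows the 10 genes in all 6 conditions.

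**Figure D1:**
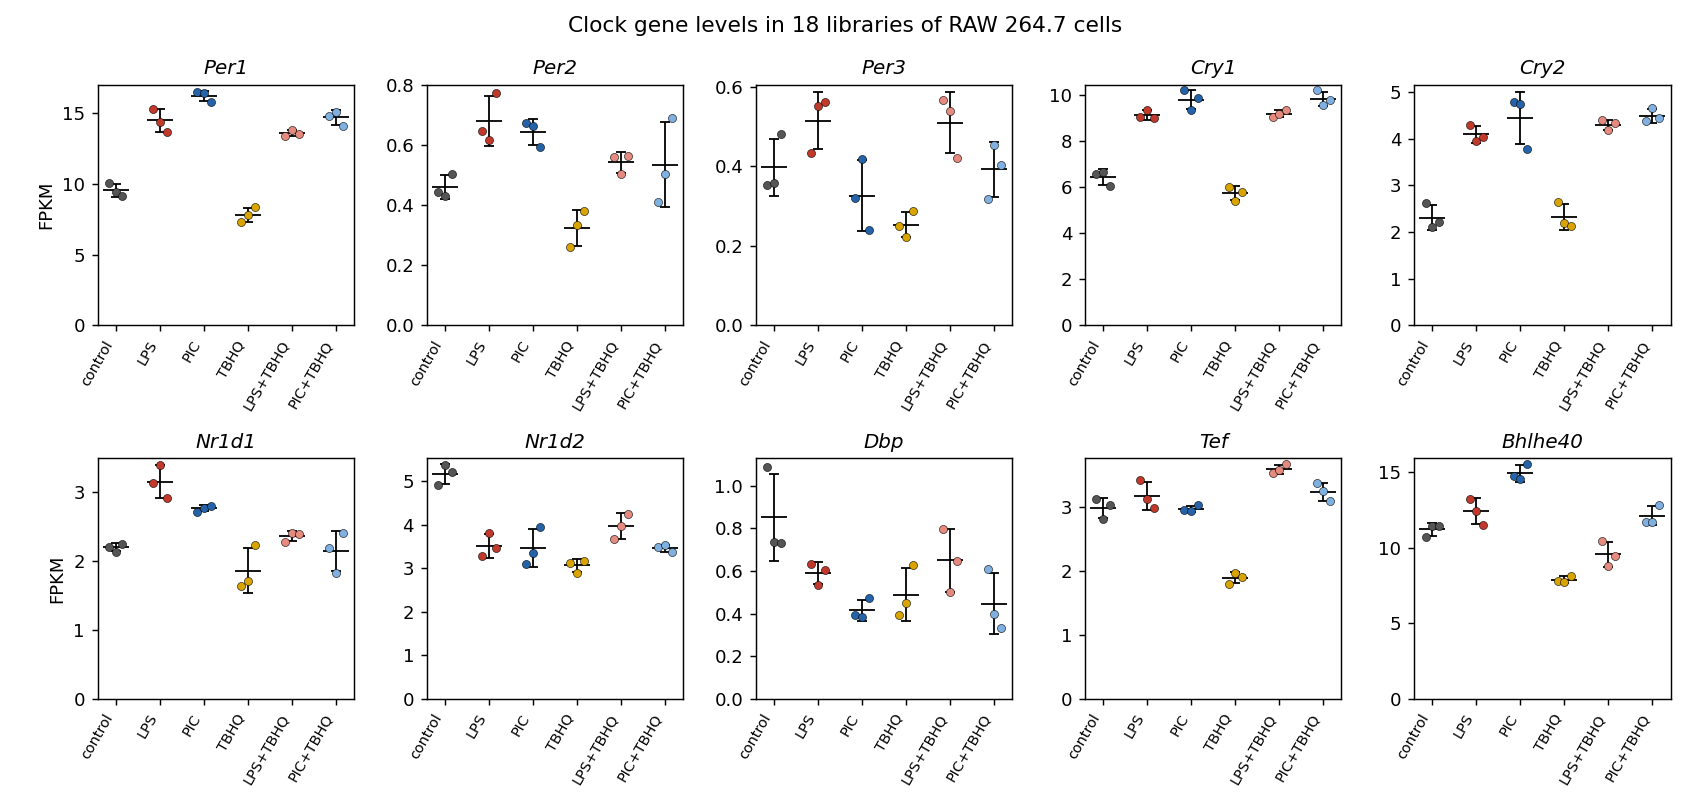
Level of each of the 10 clock genes in FPKM (vertical axis, 1 panel per gene, each from 0) in the 6 conditions. Dots are the 3 libraries of a condition, and lines are their mean with the SD; for Tef the TBHQ libraries, at 1.80 to 1.97 FPKM, lie below those of every other condition.

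Per1, Per2 and Per3 encode the PERIOD proteins, the repressors that accumulate with CRY and set the length of the cycle. Per1 (ENSMUSG00000020893, chromosome 11, 68986043 to 69000786, plus strand) also responds acutely to signals that act through CREB and the glucocorticoid receptor. In replicate order, its level was 10.1, 9.42 and 9.17 FPKM in control (mean 9.55 ± 0.46, SD, n = 3), 15.3, 14.4 and 13.7 FPKM with LPS (14.5 ± 0.808, SD, n = 3) and 16.5, 16.4 and 15.8 FPKM with PIC (16.2 ± 0.344, SD, n = 3). All 6 stimulated libraries lay above the 3 control libraries, and the PIC libraries lay above the LPS libraries. Per1 rose with LPS by a log2FC of 0.59 (SE 0.0608), higher in 3 of 3 libraries, at a Benjamini-Hochberg adjusted p of 6.54e-12 in edgeR. With PIC it rose by a log2FC of 0.75 (SE 0.0448), also in 3 of 3 libraries, at an adjusted p of 5.13e-15 in edgeR with Benjamini-Hochberg adjustment. Both calls held under each alternative tried except the study's stricter threshold.

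After TBHQ pretreatment, Per1 was at 13.4, 13.8 and 13.5 FPKM with LPS (13.6 ± 0.226, SD, n = 3) and at 14.8, 15.1 and 14.1 FPKM with PIC (14.7 ± 0.531, SD, n = 3). The LPS+TBHQ libraries overlapped those of LPS, whereas the PIC+TBHQ libraries all lay below those of PIC. PIC+TBHQ against PIC gave a log2FC of -0.14 (SE 0.0346), an edgeR Benjamini-Hochberg adjusted p of 0.0335 and a range of 0.012 to 0.314 over the alternatives. That call was lost without PIC replicate 1 (0.061), PIC replicate 2 (0.0545), PIC+TBHQ replicate 1 (0.0533) or PIC+TBHQ replicate 3 (0.144), without the filter on low counts (0.062) and with total library size (0.314). LPS+TBHQ against LPS was not called, at an adjusted p of 0.206 from edgeR with Benjamini-Hochberg adjustment. Against control, both pretreated conditions were called higher, with log2FC of 0.50 and 0.61 (edgeR Benjamini-Hochberg adjusted p 4.24e-10 and 1.83e-12). PIC exceeded LPS by a log2FC of 0.16 in 3 of 3 libraries (SE 0.0491, edgeR adjusted p 0.0159 by Benjamini-Hochberg, range 0.00691 to 0.689), and the call was lost without LPS replicate 3 (0.101). In TBHQ cells Per1 was at 7.33, 7.78 and 8.36 FPKM (7.82 ± 0.512, SD, n = 3), below all control libraries, and the edgeR log2FC of -0.29 (SE 0.0664) had a Benjamini-Hochberg adjusted p of 8.13e-05.

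Scaling by total library size instead of TMM (trimmed mean of M-values) lowered the median log2FC of all genes by 0.22 in PIC against control (from -0.01 to -0.23), by 0.13 in PIC against LPS and by 0.15 in PIC+TBHQ against control. Under that scaling the Per1 log2FC was 0.53 in PIC against control, still called, and 0.03 in PIC against LPS, no longer called, while all genes had medians of -0.23 and -0.14. The balance of calls among the 10 genes moved as well, to 0 higher and 3 lower (Tef, Nr1d1 and Per3) in PIC against LPS, 4 and 4 in PIC against control, 1 (Tef) and 1 (Bhlhe40) in PIC+TBHQ against PIC, and 1 (Tef) and 2 in LPS+TBHQ against LPS. The shares of all tested genes called are given here for TMM alone. Counts with total library size therefore have no matching share and cannot be read against one. In CPM, the Per1 libraries of PIC overlapped those of LPS and of PIC+TBHQ, the Bhlhe40 libraries of LPS and PIC overlapped, and so did those of LPS and control.

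Per2 (ENSMUSG00000055866, chromosome 1, 91343704 to 91387046, minus strand) was scarce, with 26 to 65 counts per library. Its level was 0.445, 0.430 and 0.505 FPKM in control (0.460 ± 0.040, SD, n = 3), 0.649, 0.618 and 0.776 FPKM with LPS (0.681 ± 0.0837, SD, n = 3) and 0.675, 0.664 and 0.595 FPKM with PIC (0.645 ± 0.0435, SD, n = 3). The LPS and PIC libraries all lay above the control libraries in FPKM, but in CPM the PIC libraries (3.13 to 3.56) overlapped the control libraries (2.66 to 3.14). The log2FC for LPS was 0.56 (SE 0.117), at an edgeR Benjamini-Hochberg adjusted p of 0.0244 and a range of 0.0146 to 0.106 over the alternatives, and the call was lost without control replicate 1 (0.0632), control replicate 2 (0.076) or LPS replicate 3 (0.106), in DESeq2 (0.0605) and with total library size (0.0555). For PIC the log2FC of 0.46 missed the threshold at an edgeR Benjamini-Hochberg adjusted p of 0.0529, with a range of 0.0283 to 0.301, and passed it without PIC replicate 3 (0.0499), with RLE size factors (0.0447), with a replicate block (0.0492) and in both limma fits (0.0398 and 0.0283). A difference between PIC and LPS in Per2 was not called. TBHQ libraries held 0.260, 0.334 and 0.381 FPKM of Per2 (0.325 ± 0.0606, SD, n = 3), all below the control libraries, and the log2FC of -0.50 was not called by edgeR (Benjamini-Hochberg adjusted p 0.0924). With TBHQ pretreatment the Per2 level was 0.562, 0.504 and 0.564 FPKM in LPS+TBHQ and 0.411, 0.505 and 0.692 FPKM in PIC+TBHQ, each overlapping the control libraries. The LPS+TBHQ libraries lay below all LPS libraries, but pretreatment was not called within LPS or PIC (edgeR Benjamini-Hochberg adjusted p 0.261 and 0.394).

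Per3 (ENSMUSG00000028957, chromosome 4, 151088109 to 151129122, minus strand), a PERIOD gene less needed for the rhythm itself, had 35 to 91 counts per library. It lies wholly within Camta1 on the same strand, and how the counting treated strand and overlap was not stated, so that some Per3 counts may belong to Camta1. In control, Per3 was at 0.353, 0.358 and 0.480 FPKM (0.397 ± 0.0724, SD, n = 3), and in TBHQ cells at 0.250, 0.223 and 0.287 FPKM (0.253 ± 0.0322, SD, n = 3). No TBHQ library reached the lowest control library. The edgeR log2FC was -0.65 (SE 0.171) with a Benjamini-Hochberg adjusted p of 0.0211 and a range of 0.0162 to 0.15, lost without control replicate 3 (0.15), TBHQ replicate 1 (0.0534) or TBHQ replicate 2 (0.085), and in both limma fits (0.0629 and 0.0832). Camta1 was not called there, with an edgeR Benjamini-Hochberg adjusted p of 0.506. Per3 was at 0.432, 0.551 and 0.560 FPKM with LPS and at 0.320, 0.419 and 0.240 FPKM with PIC, 2 groups that did not overlap. Against control neither was called (edgeR Benjamini-Hochberg adjusted p 0.136 for LPS and 0.205 for PIC). PIC against LPS had a log2FC of -0.68 (SE 0.254), an edgeR Benjamini-Hochberg adjusted p of 0.0127 and a range of 0.00221 to 0.119, and the call was lost without LPS replicate 2 (0.0502), LPS replicate 3 (0.0573) or PIC replicate 3 (0.119). With pretreatment, Per3 held 0.566, 0.539 and 0.421 FPKM in LPS+TBHQ and 0.318, 0.454 and 0.402 FPKM in PIC+TBHQ, each overlapping the stimulus alone.

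Cry1 and Cry2 encode the cryptochromes, the strongest direct repressors of CLOCK and BMAL1. Cry1 (ENSMUSG00000020038, chromosome 10, 84967564 to 85020928, minus strand) was at 6.59, 6.67 and 6.06 FPKM in control (6.44 ± 0.333, SD, n = 3), 9.04, 9.36 and 9.0 FPKM with LPS (9.13 ± 0.198, SD, n = 3) and 10.2, 9.35 and 9.87 FPKM with PIC (9.79 ± 0.407, SD, n = 3). No stimulated library came near the control range. Cry1 rose by a log2FC of 0.50 with LPS (SE 0.0485) in 3 of 3 libraries, with an edgeR Benjamini-Hochberg adjusted p of 2.24e-07, and by 0.59 with PIC (SE 0.0564) in 3 of 3 libraries, with an adjusted p of 3.51e-09. In pretreated cells its level was close to that of the stimulus alone. Cry1 held 9.04, 9.16 and 9.35 FPKM in LPS+TBHQ (9.18 ± 0.157, SD, n = 3) and 10.2, 9.55 and 9.80 FPKM in PIC+TBHQ (9.83 ± 0.307, SD, n = 3). In edgeR, the Benjamini-Hochberg adjusted p of pretreatment was 0.967 within LPS and 0.873 within PIC. LPS+TBHQ and PIC+TBHQ exceeded control by log2FC of 0.50 and 0.61 (edgeR Benjamini-Hochberg adjusted p 1.56e-07 and 2.26e-09). TBHQ cells had 6.02, 5.40 and 5.80 FPKM of Cry1 (5.74 ± 0.315, SD, n = 3), each below the lowest control library, and the log2FC of -0.17 was not called by edgeR (Benjamini-Hochberg adjusted p 0.0833), though both limma fits called it (0.0251 and 0.0288).

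Cry2 (ENSMUSG00000068742, chromosome 2, 92233991 to 92264388, minus strand) had the largest increases among the 10 genes with either stimulus. Its level was 2.62, 2.11 and 2.22 FPKM in control (2.31 ± 0.269, SD, n = 3), 4.29, 3.94 and 4.04 FPKM with LPS (4.09 ± 0.177, SD, n = 3) and 4.78, 4.75 and 3.78 FPKM with PIC (4.44 ± 0.565, SD, n = 3). The lowest stimulated library, PIC replicate 3, still lay above the highest control library. LPS raised Cry2 by a log2FC of 0.82 (SE 0.0999, 1.76-fold) in 3 of 3 libraries, at an edgeR Benjamini-Hochberg adjusted p of 5.45e-09. PIC raised it by a log2FC of 0.92 (SE 0.146, 1.89-fold) in 3 of 3 libraries, at an edgeR Benjamini-Hochberg adjusted p of 1.76e-10. Pretreated cells stood at the same height, with 4.39, 4.18 and 4.34 FPKM in LPS+TBHQ (4.30 ± 0.109, SD, n = 3) and 4.38, 4.65 and 4.44 FPKM in PIC+TBHQ (4.49 ± 0.145, SD, n = 3). Against the stimulus alone, edgeR gave Benjamini-Hochberg adjusted p-values of 0.629 within LPS and 0.811 within PIC. Against control the log2FC was 0.89 in LPS+TBHQ and 0.95 in PIC+TBHQ (edgeR Benjamini-Hochberg adjusted p 6.57e-10 and 8.64e-11). Cry2 in TBHQ cells, at 2.64, 2.20 and 2.13 FPKM (2.32 ± 0.276, SD, n = 3), overlapped the control range, with an adjusted p of 0.985 from edgeR after Benjamini-Hochberg adjustment. An antisense noncoding gene, D930015M05Rik, overlaps Cry2 over 23417 bases but averaged 11.2 counts per library, beside 359 for Cry2.

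Nr1d1 and Nr1d2 encode REV-ERB alpha and beta, nuclear receptors that bind haem and repress Arntl. Nr1d1 (ENSMUSG00000020889, chromosome 11, 98658758 to 98666159, minus strand) was at 2.20, 2.13 and 2.25 FPKM in control (2.20 ± 0.0582, SD, n = 3), 3.13, 3.39 and 2.91 FPKM with LPS (3.15 ± 0.243, SD, n = 3) and 2.71, 2.76 and 2.80 FPKM with PIC (2.76 ± 0.044, SD, n = 3). All stimulated libraries exceeded the control libraries, and the LPS libraries lay above the PIC libraries, a difference that was not called (edgeR Benjamini-Hochberg adjusted p 0.279, range 0.0414 to 0.562) except with total library size. The log2FC for LPS was 0.51 (SE 0.0681), with an edgeR Benjamini-Hochberg adjusted p of 0.00144. The smaller log2FC for PIC, 0.31 (SE 0.0242), had an edgeR Benjamini-Hochberg adjusted p of 0.0426 and a range of 0.0172 to 0.543, and the call was lost whichever of control replicates 1, 2 and 3 or PIC replicates 1, 2 and 3 was left out (0.0536 to 0.103). It was also lost in DESeq2 (0.088), without the filter on low counts (0.0937) and with total library size (0.543).

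In cells pretreated with TBHQ, Nr1d1 was at 2.27, 2.41 and 2.39 FPKM in LPS+TBHQ (2.36 ± 0.0722, SD, n = 3) and at 2.18, 1.83 and 2.41 FPKM in PIC+TBHQ (2.14 ± 0.292, SD, n = 3). Each pretreated library lay below all libraries of its stimulus alone. Within LPS the log2FC was -0.42 (SE 0.0697) at an edgeR Benjamini-Hochberg adjusted p of 0.0153 and a range of 0.0104 to 0.0853, lost without LPS replicate 2 (0.0853) or LPS+TBHQ replicate 1 (0.0536). Within PIC it was -0.35 (SE 0.116) at an edgeR Benjamini-Hochberg adjusted p of 0.0441 and a range of 0.0178 to 0.2, lost without PIC replicate 1 (0.0635), 2 (0.0706) or 3 (0.0831) or PIC+TBHQ replicate 1 (0.078) or 2 (0.200). DESeq2 (0.0822), a fit of the compared conditions alone (0.0579), no filter on low counts (0.0956) and total library size (0.103) did not call it either. Compared with control, neither pretreated condition was called, with edgeR Benjamini-Hochberg adjusted p-values of 0.618 for LPS+TBHQ and 0.84 for PIC+TBHQ. TBHQ cells had 1.64, 1.71 and 2.23 FPKM of Nr1d1 (1.86 ± 0.323, SD, n = 3), replicate 3 lay within the control range, and the log2FC of -0.24 was not called by edgeR (Benjamini-Hochberg adjusted p 0.203). Nr1d1 shares 1075 bases with Thra on the opposite strand, and although the libraries were strand-specific, the strand setting of the counting was not stated. Thra averaged 193 counts per library and Nr1d1 116. Thra too was called higher with LPS and PIC, with log2FC of 0.76 and 0.50, but not lower after pretreatment, where its edgeR Benjamini-Hochberg adjusted p was 0.806 within LPS and 0.837 within PIC.

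Nr1d2 (ENSMUSG00000021775, chromosome 14, 4230569 to 4265642, plus strand), the other REV-ERB gene, was lower than control in all 5 treated conditions. It had 4.91, 5.38 and 5.22 FPKM in control (5.17 ± 0.236, SD, n = 3), 3.28, 3.82 and 3.46 FPKM with LPS (3.52 ± 0.277, SD, n = 3), 3.10, 3.35 and 3.95 FPKM with PIC (3.47 ± 0.437, SD, n = 3) and 3.13, 2.89 and 3.18 FPKM with TBHQ (3.07 ± 0.153, SD, n = 3). No treated library overlapped the control. The log2FC was -0.56 with LPS (SE 0.0766, edgeR Benjamini-Hochberg adjusted p 1.17e-06) and -0.59 with PIC (SE 0.108, adjusted p 3.21e-07), each lower in 3 of 3 libraries. With TMM scaling, TBHQ alone had the largest decrease of Nr1d2, with a log2FC of -0.75 (SE 0.0555) and an edgeR Benjamini-Hochberg adjusted p of 1.23e-08. In CPM, which use the library total alone, the mean was lower in PIC (16.8) than in TBHQ (17.5). The pretreated cells stayed low, at 3.67, 3.98 and 4.26 FPKM in LPS+TBHQ (3.97 ± 0.294, SD, n = 3) and at 3.49, 3.53 and 3.38 FPKM in PIC+TBHQ (3.46 ± 0.0781, SD, n = 3), with log2FC against control of -0.39 and -0.58 (edgeR Benjamini-Hochberg adjusted p 0.0002 and 4.15e-07). Pretreatment itself was not called within LPS or PIC, with edgeR Benjamini-Hochberg adjusted p-values of 0.168 and 0.992. Of the 50-base stretches of the Nr1d2 transcripts, 5.13% also occurred in transcripts of other genes.

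Dbp (ENSMUSG00000059824, chromosome 7, 45354512 to 45359627, plus strand) encodes a D-box activator that CLOCK and BMAL1 control directly, and its RNA has one of the widest daily swings of any clock gene in tissues. It was scarce here, with 16 to 50 counts per library. Dbp was at 1.09, 0.738 and 0.732 FPKM in control (0.853 ± 0.204, SD, n = 3), 0.635, 0.535 and 0.607 FPKM with LPS (0.592 ± 0.0515, SD, n = 3) and 0.392, 0.385 and 0.474 FPKM with PIC (0.417 ± 0.0494, SD, n = 3). Control replicate 1 stood well above the other control libraries, and the LPS and PIC libraries lay below the lowest of them. Dbp fell with PIC to 0.489-fold of control, a log2FC of -1.03 (SE 0.200), lower in 3 of 3 libraries, with an edgeR Benjamini-Hochberg adjusted p of 0.00231. With LPS the log2FC of -0.53 was not called (edgeR Benjamini-Hochberg adjusted p 0.113), and PIC and LPS did not differ by a called amount. In the pretreated cells, Dbp was at 0.799, 0.503 and 0.647 FPKM in LPS+TBHQ (0.650 ± 0.148, SD, n = 3) and at 0.609, 0.400 and 0.333 FPKM in PIC+TBHQ (0.447 ± 0.144, SD, n = 3). PIC+TBHQ against control gave a log2FC of -0.93 (SE 0.297) and an edgeR Benjamini-Hochberg adjusted p of 0.00584, with a range of 0.00134 to 0.0601, lost without control replicate 1 (0.0601). TBHQ cells held 0.392, 0.450 and 0.627 FPKM of Dbp (0.490 ± 0.123, SD, n = 3), below all control libraries. Their log2FC was -0.79 (SE 0.258) at an edgeR Benjamini-Hochberg adjusted p of 0.0266, with a range of 0.0177 to 0.178, lost without control replicate 1 (0.178), TBHQ replicate 1 (0.123) or TBHQ replicate 2 (0.0859), and in DESeq2 (0.0619). Sphk2 overlaps Dbp by 737 bases on the opposite strand and averaged 1586 counts per library against 27.2 for Dbp, so counts assigned without regard to strand could mix them. Sphk2 was called higher with LPS and PIC (log2FC 0.73 and 0.71 in edgeR), opposite in sign to Dbp, but lower with TBHQ alone (log2FC -0.18, edgeR Benjamini-Hochberg adjusted p 0.0088, range 0.00302 to 0.111), the same sign as Dbp. Without TBHQ replicate 1 (0.111) or control replicate 2 (0.0896) that Sphk2 call was lost. How far the overlap contributes to the Dbp values was not tested.

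Tef (ENSMUSG00000022389, chromosome 15, 81686622 to 81711064, plus strand) encodes a related PAR bZIP factor. Tef was at 3.12, 2.81 and 3.02 FPKM in control (2.98 ± 0.159, SD, n = 3), 3.41, 3.12 and 2.98 FPKM with LPS (3.17 ± 0.219, SD, n = 3), 2.94, 2.93 and 3.02 FPKM with PIC (2.96 ± 0.0484, SD, n = 3) and 1.80, 1.97 and 1.90 FPKM with TBHQ (1.89 ± 0.0892, SD, n = 3). The control, LPS and PIC libraries overlapped in FPKM, and the TBHQ libraries stood alone below them. In CPM, PIC libraries (20.6 to 21.3) lay below the control libraries (23.4 to 25.8). TBHQ against control had a log2FC of -0.66 (SE 0.0593), lower in 3 of 3 libraries, with an edgeR Benjamini-Hochberg adjusted p of 2.57e-08. The stimuli were not called, at edgeR Benjamini-Hochberg adjusted p-values of 0.393 for LPS and 0.794 for PIC. With total library size Tef was called lower in PIC than in control, at a log2FC of -0.24 beside a median of -0.23 over all genes (adjusted p 0.00459, in a range of 0.00459 to 0.997). In pretreated cells Tef was at 3.52, 3.57 and 3.66 FPKM in LPS+TBHQ (3.58 ± 0.0709, SD, n = 3) and 3.37, 3.25 and 3.08 FPKM in PIC+TBHQ (3.23 ± 0.144, SD, n = 3). LPS+TBHQ exceeded control by a log2FC of 0.26 (SE 0.048) at an edgeR Benjamini-Hochberg adjusted p of 0.00377, and PIC+TBHQ was not called against control (adjusted p 0.215). Although the pretreated libraries lay above those of the stimulus alone, the log2FC of 0.17 within LPS and 0.14 within PIC were not called (edgeR Benjamini-Hochberg adjusted p 0.0783 and 0.174). The former passed without LPS replicate 1 (0.0455) and with total library size (0.0394), in a range of 0.0394 to 0.276, and the latter with total library size (0.0297), in a range of 0.0297 to 0.431.

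Bhlhe40 (ENSMUSG00000030103, chromosome 6, 108637590 to 108643886, plus strand) encodes DEC1, a repressor that competes at E-boxes and also shapes cytokine output in macrophages. It was the most abundant of the 10 genes in control, at 10.7, 11.4 and 11.4 FPKM (11.2 ± 0.418, SD, n = 3). The level was 13.2, 12.4 and 11.5 FPKM with LPS (12.4 ± 0.867, SD, n = 3) and 14.7, 14.5 and 15.5 FPKM with PIC (14.9 ± 0.538, SD, n = 3). PIC libraries lay above all LPS libraries, and LPS replicate 3 barely cleared the control range. Bhlhe40 rose with PIC by a log2FC of 0.40 (SE 0.0421), in 3 of 3 libraries, at an edgeR Benjamini-Hochberg adjusted p of 3.65e-07. For LPS the log2FC of 0.14 narrowly missed the threshold at an edgeR Benjamini-Hochberg adjusted p of 0.0562, with a range of 0.0104 to 0.516, and passed it without LPS replicate 3 (0.0104), with RLE size factors (0.044) and among genes with a mean of at least 50 counts (0.0221). PIC exceeded LPS by a log2FC of 0.26 (SE 0.0645, edgeR Benjamini-Hochberg adjusted p 0.000831), a call lost with scaling by total library size (0.0792, in a range of 0.000196 to 0.0792) and with the study's stricter threshold.

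With pretreatment, Bhlhe40 was at 10.4, 8.75 and 9.47 FPKM in LPS+TBHQ (9.54 ± 0.824, SD, n = 3) and 11.7, 11.7 and 12.8 FPKM in PIC+TBHQ (12.1 ± 0.624, SD, n = 3). All 6 libraries lay below those of the stimulus alone. The log2FC was -0.37 within LPS (SE 0.0919) at an edgeR Benjamini-Hochberg adjusted p of 1.02e-05, and -0.29 within PIC (SE 0.052) at an adjusted p of 0.0002. LPS+TBHQ thereby lay below the control as well, with a log2FC of -0.24 (SE 0.0779, edgeR Benjamini-Hochberg adjusted p 0.00163), whereas PIC+TBHQ was not called against control (adjusted p 0.123). Bhlhe40 was also the gene called between the pretreated stimuli, with PIC+TBHQ above LPS+TBHQ by a log2FC of 0.35 (SE 0.0836) at an edgeR Benjamini-Hochberg adjusted p of 3.53e-05. TBHQ cells had 7.78, 7.69 and 8.14 FPKM of Bhlhe40 (7.87 ± 0.238, SD, n = 3), the lowest of the 6 conditions, at a log2FC of -0.51 (SE 0.0386) and an edgeR Benjamini-Hochberg adjusted p of 5.86e-08. The 3 calls for TBHQ, alone or before a stimulus, held under every alternative tried except the study's stricter threshold.

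By control level per length, the order was Bhlhe40, Per1, Cry1, Nr1d2, Tef, Cry2, Nr1d1, Dbp, Per2 and Per3, from 11.2 to 0.397 FPKM. Neighbours in this order whose control libraries overlapped were Cry2 with Nr1d1 and Per2 with Per3. Each of the 10 genes was called in at least 1 of the 9 pairwise comparisons, as were 78.2% of all tested genes. Cry1 and Cry2 were called in 4 each and higher in all of them, Nr1d2 in 5 and lower in all, and Dbp in 3 and lower in all. Per1 was higher in 5 and lower in 2, Bhlhe40 higher in 3 and lower in 4, and Nr1d1 higher in 2 and lower in 2.

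**Figure D2:**
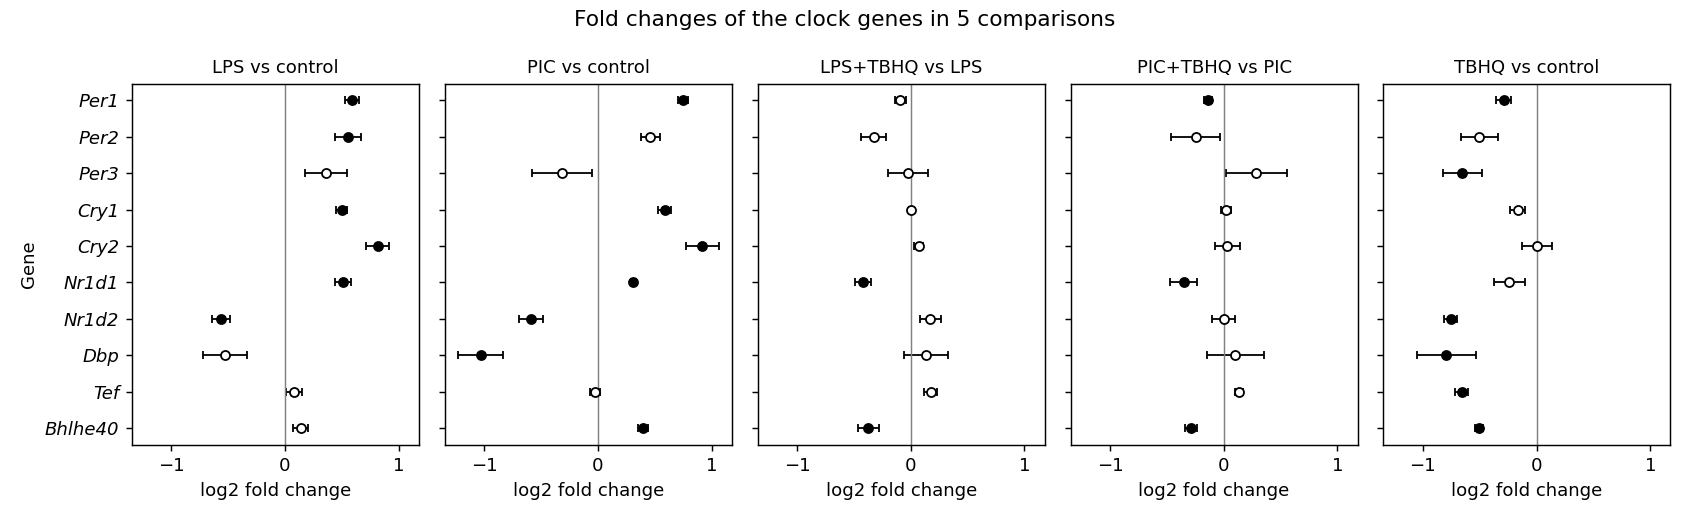
log2 fold change (horizontal axis) of each of the 10 clock genes in the comparisons of LPS and PIC with control, LPS+TBHQ with LPS, PIC+TBHQ with PIC and TBHQ with control, with bars for the SE from the spread between libraries and filled points for genes called at an FDR below 0.05. Cry2 reaches 0.92 with PIC, and Nr1d2 lies at -0.75 with TBHQ, where harvest time may differ as well.

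The rest of the clock was followed through 20 further genes, of which 15 had enough counts to be tested: 4 of 7 in the positive arm, 4 of 5 other repressors and bZIP partners, 4 of 5 kinases and ubiquitin ligases of PER and CRY, and 3 of 3 outputs. Npas2, Arntl2, Rorb, Hlf and Fbxl21 had at most 6 counts in any library and were not tested. Of the 15, LPS called 6 higher and 2 lower, beside 24% and 24.1% of all tested genes, and PIC called 7 higher and 3 lower, beside 28.6% and 30.1%. With total library size these became 2 higher and 4 lower for LPS and 2 and 5 for PIC, for which the shares of all genes, taken with TMM, are no match. LPS+TBHQ against LPS called 2 higher and 3 lower (11.7% and 12.2% of all genes), PIC+TBHQ against PIC called 3 and 3 (15.8% and 15.5%), and TBHQ against control called 1 and 6 (14.2% and 14.8%). Without control replicate 3, edgeR no longer called Timeless, Usp2 and Wee1 lower with TBHQ (Benjamini-Hochberg adjusted p 0.121, 0.0521 and 0.135). These 3 calls were also lost without TBHQ replicate 1 (0.15, 0.0531 and 0.0651) and in DESeq2 (0.0855, 0.0651 and 0.0958). PIC against LPS called 4 higher and 5 lower (14.9% and 12.8%), PIC+TBHQ against LPS+TBHQ 3 and 2 (11.9% and 8.39%), LPS+TBHQ against control 2 and 3 (21.2% and 22.5%), and PIC+TBHQ against control 5 and 3 (26.4% and 26%). Total library size gave 1 and 5, 2 and 5, 0 and 5, and 1 and 4 in these last comparisons. The interaction called 0 of the 15 in edgeR and 0 in DESeq2 or limma. In edgeR 3 of the 15 had an unadjusted p below 0.05, beside 1940 of all 13691 tested genes. Leaving out PIC replicate 2 called 1 of them, Clock, at a Benjamini-Hochberg adjusted p of 0.0351 in edgeR, against 0.104 with all libraries and a range of 0.0351 to 0.217. Their median log2FC was 0.08 with LPS, 0.10 with PIC and -0.16 with TBHQ.

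In the positive arm, Clock had a mean level between 5.58 FPKM (LPS) and 6.24 FPKM (LPS+TBHQ) over the 6 conditions and was not called by edgeR in any comparison with control. Some alternatives did call it, with a lowest Benjamini-Hochberg adjusted p of 0.0394 for LPS, 0.022 for PIC, 0.0255 for LPS+TBHQ and 0.0414 for PIC+TBHQ. Among them were the omission of PIC replicate 2 for PIC (0.022) and of control replicate 3 (0.0357) or LPS+TBHQ replicate 3 (0.0255) for LPS+TBHQ, all higher, whereas total library size called Clock lower with LPS, PIC and PIC+TBHQ. Its call in LPS+TBHQ against LPS (log2FC 0.16, edgeR Benjamini-Hochberg adjusted p 0.0233, range 0.00972 to 0.0977) was lost without LPS replicate 1 (0.0571), LPS replicate 3 (0.0977), LPS+TBHQ replicate 1 (0.095) or LPS+TBHQ replicate 2 (0.0953), and in both limma fits (0.0741 and 0.0733). Arntl, the gene of BMAL1, had a mean of 3.66 ± 0.158 FPKM in control, 4.66 ± 0.269 with LPS, 3.93 ± 0.358 with PIC and 4.57 ± 0.0663 with TBHQ (SD, n = 3 each). Arntl rose with LPS (log2FC 0.34, edgeR Benjamini-Hochberg adjusted p 0.000158) and was higher with TBHQ (log2FC 0.32, adjusted p 0.000688), without overlap with control in either, and was not called with PIC (adjusted p 0.341). Rora, with 7 to 51 counts per library, had a log2FC of 0.75 with PIC at an edgeR Benjamini-Hochberg adjusted p of 0.0366 (range 0.0153 to 0.13), lost without PIC replicate 1 (0.0664), PIC replicate 3 (0.119), control replicate 2 (0.129) or control replicate 3 (0.0714), in DESeq2 (0.072), in both limma fits (0.068 and 0.0598) and with total library size (0.13).

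Among the other repressors, Ciart (CHRONO), which blocks CLOCK and BMAL1 much as PER and CRY do, moved more with PIC than any of the 10 genes under TMM scaling. Over the alternatives its log2FC ran from 0.94 to 1.25 and that of Dbp from -1.25 to -0.38, so the ranking is limited to that scaling. Its level was 2.91, 3.34 and 2.72 FPKM in control (2.99 ± 0.316, SD, n = 3), 5.66, 4.40 and 5.57 FPKM with LPS (5.21 ± 0.701, SD, n = 3), 6.29, 7.10 and 6.92 FPKM with PIC (6.77 ± 0.427, SD, n = 3) and 1.5, 2.16 and 1.43 FPKM with TBHQ (1.70 ± 0.405, SD, n = 3). After pretreatment it was 3.31, 3.22 and 4.26 FPKM in LPS+TBHQ (3.60 ± 0.577, SD, n = 3) and 3.97, 4.02 and 3.75 FPKM in PIC+TBHQ (3.91 ± 0.143, SD, n = 3). Stimulated libraries were high, pretreated libraries lay below their stimulus, and TBHQ libraries were lowest. The log2FC of Ciart was 0.79 with LPS (SE 0.142, edgeR Benjamini-Hochberg adjusted p 1.07e-05) and 1.16 with PIC (SE 0.10, adjusted p 2.46e-09). Pretreatment gave a log2FC of -0.53 within LPS (SE 0.171, edgeR Benjamini-Hochberg adjusted p 0.00284) and -0.78 within PIC (SE 0.0597, adjusted p 1.21e-05). TBHQ alone gave -0.82 (SE 0.203, edgeR Benjamini-Hochberg adjusted p 0.00014), and all 5 calls held under each alternative tried except the study's stricter threshold.

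Bhlhe41, the DEC2 gene and closest relative of Bhlhe40, was measured in the same libraries. Its mean level was 8.80 FPKM in control, 8.56 with LPS, 10.4 with PIC, 7.21 with TBHQ, 9.39 with LPS+TBHQ and 12.0 with PIC+TBHQ. Bhlhe41 was higher in PIC+TBHQ than in PIC (log2FC 0.22, edgeR Benjamini-Hochberg adjusted p 0.0045, range 0.000237 to 0.0874), a call lost without PIC replicate 3 (0.0874), and lower in TBHQ than in control (log2FC -0.29, adjusted p 0.000461). Nfil3, a bZIP repressor that opposes DBP and TEF at D-boxes, had means of 9.73 FPKM in control, 11.5 with LPS, 9.30 with PIC and 11.7 with PIC+TBHQ. It was higher in PIC+TBHQ than in PIC (log2FC 0.34, edgeR Benjamini-Hochberg adjusted p 0.0038) and lower in PIC than in LPS (log2FC -0.32, adjusted p 0.0088). Its higher level with LPS than in control (log2FC 0.24, edgeR Benjamini-Hochberg adjusted p 0.0318, range 0.00486 to 0.328) was not called without LPS replicate 1 (0.114) or control replicate 2 (0.328), in DESeq2 (0.0594) or with total library size (0.179). Timeless, linked to DNA replication as well as the clock, held 9.57 to 10.3 FPKM in control, 9.27 to 9.95 FPKM with LPS and 6.24 to 7.14 FPKM with PIC, and fell with PIC (log2FC -0.59, edgeR Benjamini-Hochberg adjusted p 1.12e-10).

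Of the output genes, Wee1, a cell-cycle kinase gene with E-boxes under clock control, changed most with LPS and PIC. Wee1 was at 10.2, 10.8 and 11.1 FPKM in control (10.7 ± 0.427, SD, n = 3), 4.38, 3.85 and 5.22 FPKM with LPS (4.48 ± 0.688, SD, n = 3), 3.28, 2.74 and 3.37 FPKM with PIC (3.13 ± 0.342, SD, n = 3) and 9.30, 9.18 and 8.92 FPKM with TBHQ (9.13 ± 0.192, SD, n = 3). Pretreated cells held 6.75, 7.45 and 6.25 FPKM in LPS+TBHQ (6.82 ± 0.601, SD, n = 3) and 4.55, 4.53 and 5.85 FPKM in PIC+TBHQ (4.98 ± 0.758, SD, n = 3), between the stimulus alone and the control. Wee1 fell by a log2FC of -1.26 with LPS (SE 0.129, edgeR Benjamini-Hochberg adjusted p 1.85e-13) and of -1.79 with PIC (SE 0.0981, adjusted p 2.62e-17). Wee1 was higher with pretreatment than without, by a log2FC of 0.60 within LPS (SE 0.144, edgeR Benjamini-Hochberg adjusted p 1.76e-05) and of 0.68 within PIC (SE 0.153, adjusted p 9.45e-06). Usp2, the gene of a deubiquitinase that acts on clock proteins, had means of 3.98 FPKM in control, 3.11 with LPS and 2.53 with PIC, and fell with both (log2FC -0.36 and -0.67, edgeR Benjamini-Hochberg adjusted p 0.00362 and 1.2e-06). Nampt, which makes a precursor of NAD and is driven by the clock in several tissues, had means of 53.5 FPKM in control, 77.0 with PIC, 58.5 with PIC+TBHQ and 42.2 with TBHQ. Nampt rose with PIC (log2FC 0.51, edgeR Benjamini-Hochberg adjusted p 7e-15), and was lower with pretreatment within PIC (log2FC -0.39, adjusted p 6.24e-11) and within LPS (log2FC -0.26, adjusted p 5.9e-07).

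The 250 bases before the start of each gene were searched on both strands for 5 short motifs, using promoter sequences from RefSeq on build GRCm38.p6. Sequences were matched for 8 of the 10 genes, leaving Per2 and Bhlhe40. The E-box CACGTG occurred before the start of Per1, Cry1 and Tef, 3 of the 8 genes, and in 6.86% of all 27025 genes with a sequence of this length. Per1 and Tef have 2 annotated starts each, and the E-box lay before the first alone in Per1 and before both in Tef. The D-box, TTATGTAA or TTACGTAA, occurred in Per3 alone among the 8, at 2 sites, and in 1.1% of all genes, while 7 of all 32851 promoters held 2 or more. The CRE, TGACGTCA, occurred in 0 of the 8 and in 1.77% of all genes. The nuclear receptor half-site AGGTCA occurred in Per1 and Nr1d2 and in 15.8% of all genes, and the antioxidant response element core TGACNNNGC in Per1 and Cry2 and in 11.5%. A match describes letters in this window and does not show that a factor binds there.

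Sequences of the clock genes holding an E-box or a D-box are printed 5′ to 3′, with Ciart as the partner gene with the largest increase in PIC against control, and capitals mark the motif. They come from RefSeq on build GRCm38.p6, whose coordinates differ from the gene positions above. The Per1 sequence is chr11:69098699-69098948 on the plus strand, with its E-box 160 bases before the start, and the Cry1 sequence is chr10:85185055-85185304 on the minus strand, with its E-box 54 bases before the start. The Ciart sequence, chr3:95882229-95882478 on the minus strand, holds 3 E-boxes at 110, 52 and 38 bases. The first start of Tef, chr15:81802423-81802672 on the plus strand, has its E-box at 121 bases. In Per3, chr4:151044666-151044915 on the minus strand, the D-boxes lie at 197 and 150 bases.
Per1: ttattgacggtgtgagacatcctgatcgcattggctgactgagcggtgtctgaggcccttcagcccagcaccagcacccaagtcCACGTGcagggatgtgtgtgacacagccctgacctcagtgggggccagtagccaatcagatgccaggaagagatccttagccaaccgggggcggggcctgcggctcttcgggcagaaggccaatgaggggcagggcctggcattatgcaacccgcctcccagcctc
Cry1: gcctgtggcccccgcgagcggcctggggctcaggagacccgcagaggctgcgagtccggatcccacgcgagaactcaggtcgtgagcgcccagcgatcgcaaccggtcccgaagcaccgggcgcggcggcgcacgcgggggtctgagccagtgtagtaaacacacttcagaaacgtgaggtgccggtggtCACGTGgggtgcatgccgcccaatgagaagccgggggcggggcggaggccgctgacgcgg
Ciart: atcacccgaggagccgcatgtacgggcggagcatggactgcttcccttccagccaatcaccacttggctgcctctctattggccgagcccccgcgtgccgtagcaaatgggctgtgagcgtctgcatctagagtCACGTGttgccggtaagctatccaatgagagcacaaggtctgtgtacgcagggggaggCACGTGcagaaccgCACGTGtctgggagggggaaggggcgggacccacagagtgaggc
Tef: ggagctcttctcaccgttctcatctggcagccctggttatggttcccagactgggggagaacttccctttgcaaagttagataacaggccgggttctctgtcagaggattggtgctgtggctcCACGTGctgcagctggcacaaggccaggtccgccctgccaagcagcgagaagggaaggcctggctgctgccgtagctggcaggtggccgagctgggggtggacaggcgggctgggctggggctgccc
Per3: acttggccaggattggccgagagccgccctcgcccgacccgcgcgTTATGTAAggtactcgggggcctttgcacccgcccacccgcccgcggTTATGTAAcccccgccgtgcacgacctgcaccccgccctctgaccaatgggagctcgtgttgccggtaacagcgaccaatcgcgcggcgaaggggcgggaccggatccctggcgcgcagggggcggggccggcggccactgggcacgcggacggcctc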

How the data were processed

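Polyadenylated RNA of 18 libraries was analysed from raw counts and FPKM per gene as deposited by the authors, with gene length as an other column. The submitters' processing notes name HISAT2 2.0.5, StringTie 1.3.3b and featureCounts 1.5.0-p3, and both GRCm38 and mm39 as builds. Gene positions are those of the deposited table, and all 10 clock genes have other coordinates in the GRCm38 annotation. Counts were fitted in edgeR 4.0.16 (R 4.3.3) with TMM scaling, filterByExpr and 1 coefficient per condition over all 18 libraries, followed by the quasi-likelihood test and Benjamini-Hochberg adjustment over 13691 genes. Alternatives were DESeq2 1.42.0, limma 3.58.1 on log2(FPKM + 1) and log2(FPKM + 0.1), RLE and total library size scaling, other filters, the compared conditions only, a replicate block, the study's threshold, and leaving out each library. The fit was also tested on simulated data for LPS against control, with 13401 genes. It recovered 87 of 100 genes changed 2-fold and 74 of 100 changed 1.4-fold, with 6 false calls. In the simulation only these changed genes differed between conditions, with rises and falls in equal number, and genes with very few counts were not among them. Far more genes were called in the measured LPS comparison, so these rates need not hold there. The choice of scaling was not tested by the simulation. Replicate numbers were not used to pair libraries.

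All 10 clock genes were tested in each comparison, and each call among them is given in the report. Of 20 partner genes, those called with an absolute log2FC of at least 0.5 were named, plus Clock, Arntl, Nfil3 and Bhlhe41. Genes of similar profile were the 5 with the highest Pearson correlation to each of the 2 clock genes with the widest range of condition means, among genes with a mean of at least 50 counts. The genes and lists were chosen with earlier results of these data known, and 1 partner gene and 1 cell type marker of these lists are not reported here. Overlapping genes such as Thra, Sphk2 and Camta1 were named after their overlap was seen. Summaries and plots used Python 3.11.15, pandas 2.3.3, numpy 2.4.6 and matplotlib 3.10.9.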

Additional observations from a re-analysis of the deposited data

How the results depend on the processing

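The 9 pairwise comparisons gave 39 calls among the 10 clock genes, of which 28 held under every alternative fit and every omission of a library. Over those 39 results, 16 of 347 values under other settings and 31 of 234 with 1 library left out missed the threshold, and 0 changed sign. Shares of all tested genes called were taken from the main fit alone. Counts given below from other fits, or with 1 library left out, therefore have no matching share and cannot be read against one.

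Under the study's threshold, 0 of the 10 genes were called in each of the 9 pairwise comparisons. Without a filter on low counts, PIC+TBHQ against PIC called 1 gene in place of 3. With total library size, PIC+TBHQ against LPS+TBHQ called 3 in place of 1. Total library size also reversed the sign of 2 of 63 called partner results and of 19 of 72 that were not called, 2 of which it then called. The called ones went to a log2FC of -0.061 for Csnk1d in PIC against control and -0.025 for Nampt in PIC+TBHQ against control. This scaling shifts all genes together, as its medians show. For the other changes the cause was not tested.

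Leaving out 1 library at a time, the number called was 5 to 6 for LPS, 6 to 7 for PIC, 6 to 6 for LPS+TBHQ, 4 to 5 for PIC+TBHQ and 4 to 6 for TBHQ, each against control. It was 1 to 3 for LPS+TBHQ against LPS, 1 to 2 for PIC+TBHQ against PIC, 1 to 3 for PIC against LPS, 1 to 1 for PIC+TBHQ against LPS+TBHQ and 0 to 0 for the interaction. A single call was left in LPS+TBHQ against LPS without LPS replicate 2 or LPS+TBHQ replicate 1, in PIC+TBHQ against PIC without PIC replicate 1, PIC replicate 2 or PIC+TBHQ replicate 1, and in PIC against LPS without LPS replicate 3.

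With the replicate block, the counts were 6, 8 and 6 for LPS, PIC and TBHQ against control, and Per2 passed the threshold with PIC (adjusted p 0.0492, in a range of 0.0283 to 0.301 over the alternatives). Correlations of same-numbered libraries, 27 in all, lay between -0.0444 and 0.0645, so the numbers gave no pairing. A filter of a mean of at least 50 counts left no value for Per2 or Dbp. Depth limits Per2, Per3 and Dbp most, with 16 to 91 counts per library between them, and 3 cultures of 1 line limit every comparison.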

Other observations

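A second list held 6 genes that share acute inputs with Per1 through CREB or the glucocorticoid receptor, all 6 tested. LPS called 1 higher and 1 lower, beside 24% and 24.1% of all tested genes, and PIC 3 and 2, beside 28.6% and 30.1%. LPS+TBHQ against LPS called 1 and 0 (11.7% and 12.2% of all genes), PIC+TBHQ against PIC 1 and 1 (15.8% and 15.5%), and TBHQ against control 2 and 1 (14.2% and 14.8%). PIC against LPS called 0 and 1 (14.9% and 12.8%), PIC+TBHQ against LPS+TBHQ 0 and 1 (11.9% and 8.39%), LPS+TBHQ against control 1 and 0 (21.2% and 22.5%), and PIC+TBHQ against control 2 and 1 (26.4% and 26%). With total library size the counts became 1 and 2 for PIC against control, 1 and 0 for PIC+TBHQ against PIC, 0 and 2 for PIC against LPS, 0 and 2 for PIC+TBHQ against LPS+TBHQ, and 1 and 2 for PIC+TBHQ against control, and the other comparisons kept theirs. The shares of all genes above were taken with TMM and do not match these counts. The interaction called 0 of the 6 in edgeR and 0 in DESeq2 or limma. In edgeR 0 of the 6 had an unadjusted p below 0.05, beside 1940 of all 13691 tested genes. Without TBHQ replicate 1, edgeR no longer called Fkbp5 and Tsc22d3 in TBHQ against control (Benjamini-Hochberg adjusted p 0.135 and 0.0764). Without control replicate 2, it no longer called Sgk1 and Nr4a1 in PIC against control (0.0651 and 0.0514). Crem, a CREB target, had means of 1.65 FPKM in control, 3.22 with LPS and 3.78 with PIC, with log2FC of 0.95 and 1.18 (edgeR Benjamini-Hochberg adjusted p 2.52e-09 and 5.83e-12). Fkbp5, a glucocorticoid receptor target, went the other way, with means of 4.81, 3.46 and 2.95 FPKM and log2FC of -0.48 and -0.72 (edgeR Benjamini-Hochberg adjusted p 1.96e-08 and 1.58e-12). Fkbp5 was higher with pretreatment within LPS (log2FC 0.46, edgeR Benjamini-Hochberg adjusted p 2.3e-07) and within PIC (log2FC 0.34, adjusted p 5.94e-05). Sik1, another CREB target, with 4 to 37 counts per library, fell with PIC (log2FC -2.07, edgeR Benjamini-Hochberg adjusted p 0.000269). Sgk1, another glucocorticoid receptor target, rose with PIC (log2FC 0.44, edgeR Benjamini-Hochberg adjusted p 0.00906, range 0.00542 to 0.179), a call lost without control replicate 2 (0.0651) and with total library size (0.179). The genes named in this paragraph were picked out after their values were seen.

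Per1 and Per3 had the widest range of condition means among the clock genes with a mean of at least 50 counts, 1.04 and 0.98 in TMM-scaled log2 CPM. The correlations below use the same log2 CPM. Over the 18 libraries, which share conditions in sets of 3, the genes most correlated with Per1 among 10451 were Hax1 (Pearson r 0.993), Crem (0.990), Sars (0.989), Rhoc (0.989) and Spp1 (0.989). For Per3 they were ENSMUSG00000095041 (0.871), Snx16 (0.844), Mtln (0.839), G730013B05Rik (0.832) and Sla (0.826). Over the 15 libraries without TBHQ alone, the r of these genes with Per3 was lower, at 0.816, 0.779, 0.760, 0.749 and 0.725. For the genes named with Per1 it was 0.980 to 0.991 over those 15 libraries. These are descriptions of likeness over 6 conditions, with no test.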
